A study of Homo sapiens with 18 samples.

Results

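The response of LNCaP cells to R1881, a synthetic androgen, was measured in 6 of the 18 RNA-seq libraries of the series, those of cells that had received a non-targeting control siRNA pool. The libraries were chosen by their labels. Control siRNA with 0.1 nM R1881 (replicates 1, 2 and 3) was compared with control siRNA with vehicle, which was ethanol (replicates 1, 2 and 3). Every gene with enough counts entered the comparison, which left 15185 of the 58037 genes listed. LNCaP is an established androgen-responsive line from a lymph node metastasis of prostate cancer. All cells were kept in androgen-poor medium (9% charcoal-stripped serum), were transfected the next day, and were harvested 48 h after the start of treatment. Treatment began 48 h after transfection by the labels' protocol and 42 h after it by the design text. The 12 remaining libraries carried a pool against E2F1 or E2F2 with the same treatments, and serve here for the estimate of spread and for setting their R1881 responses beside that with control siRNA.

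Androgens are steroid hormones that act on transcription. In cells that respond to them they lead to the binding of DNA elements made of paired half-sites, mostly at enhancers opened by pioneer factors such as FOXA1, and to the recruitment of coactivators. In the prostate they are known for driving the secretory program of luminal cells, of which prostate-specific antigen is the best-known product, and lipid synthesis. In prostate cancer cells they also drive growth, and they lower the expression of many genes.

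The 6 libraries held 14819879, 13928098 and 11646324 gene counts with R1881, against 12631690, 14154509 and 14563300 with vehicle. Replicate 3 stood apart in both groups. In a chi-square comparison of counts over genes, the statistic divided by its degrees of freedom was 2.79 with R1881 and 1.79 with vehicle for replicates 1 and 2. Against replicate 3 it was 17.0 and 18.5 with R1881, and 83.3 and 93.2 with vehicle. The deviation of replicate 3 from the others of its group went with the GC content of the gene (Pearson r = 0.718 with R1881 and 0.831 with vehicle, across 11503 genes, which are not independent). The log2 response computed within replicate numbers correlated across genes at r = 0.792 between numbers 1 and 2, 0.677 between 1 and 3 and 0.673 between 2 and 3. Summed luminal markers came to 6493 to 7019.8 CPM with R1881 and 4455 to 5058 CPM with vehicle, where CPM are counts-per-million values after scaling of the libraries. Some markers of other cell types had no count in any of the 6 libraries. Among them were KRT5, TP63 and KRT6A of 8 basal markers and CHGA, INSM1 and NEUROD1 of 12 neuroendocrine markers. So were COL1A2, DCN, DES, MYH11 and THY1 of 10 fibroblast and muscle markers, and PTPRC, CD3E, NKG7 and MS4A1 of 8 immune markers. Other markers had counts. Summed basal markers came to 45.6 to 50.9 CPM with R1881 and 43.0 to 59.6 CPM with vehicle. Summed neuroendocrine markers came to 29.1 to 41.4 CPM with R1881 and 48.0 to 72.3 CPM with vehicle. Of 7 endothelial markers, VWF alone had enough counts to be tested (18.6, 18.8 and 16.4 CPM with R1881, against 13.6, 13.3 and 17.4 CPM with vehicle).

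R1881 changed the level of 4105 genes, 27.0% of those tested, at an adjusted p under 0.05. Of these, 2093 (13.8%) were higher and 2012 (13.2%) were lower with R1881. The median log2 fold change over all tested genes was 0.00182. Of the called genes 1493 changed by less than 1.5-fold, and 1245 (8.20% of those tested) changed at least 2-fold, 509 higher and 736 lower. At least 8-fold changes were reached by 81 genes that rose and 73 that fell. All 3 R1881 libraries lay on one side of all 3 vehicle libraries for 5331 genes, 35.1% of those tested, among them 2040 of the genes called higher and 1898 of those called lower. Of the 12501 tested protein-coding genes 3668 were called, and of the 1393 tested lincRNA or antisense genes 266. In bulk RNA such as this, a change in the number of cells of a type or state cannot be told apart from a change in RNA per cell.

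The genes called higher held 21.6%, 21.5% and 21.6% of all counts with R1881, against 14.0%, 13.9% and 13.5% with vehicle. The genes called lower held 9.31%, 9.25% and 9.28% of all counts with R1881, against 14.7%, 14.7% and 15.1% with vehicle. These genes were chosen by the same libraries, so the shares describe the size of the response and test nothing. The number of calls depended on the fit. With the replicate number as a block in the fit, 6392 genes were called, 4104 of them among the 4105. With replicates 1 and 2 of every group only, 7205 were called, 3904 of them among the 4105. A fit to the 6 libraries alone called 1842. With the block 3445 of 15185 genes were higher and 2947 lower. With replicates 1 and 2 only 3851 of 15225 were higher and 3354 lower. With the 6 libraries alone 915 of 14313 were higher and 927 lower. Counts of list members given below for these fits stand beside these numbers, not beside the shares of 13.8% and 13.2%.

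**Figure D1:**
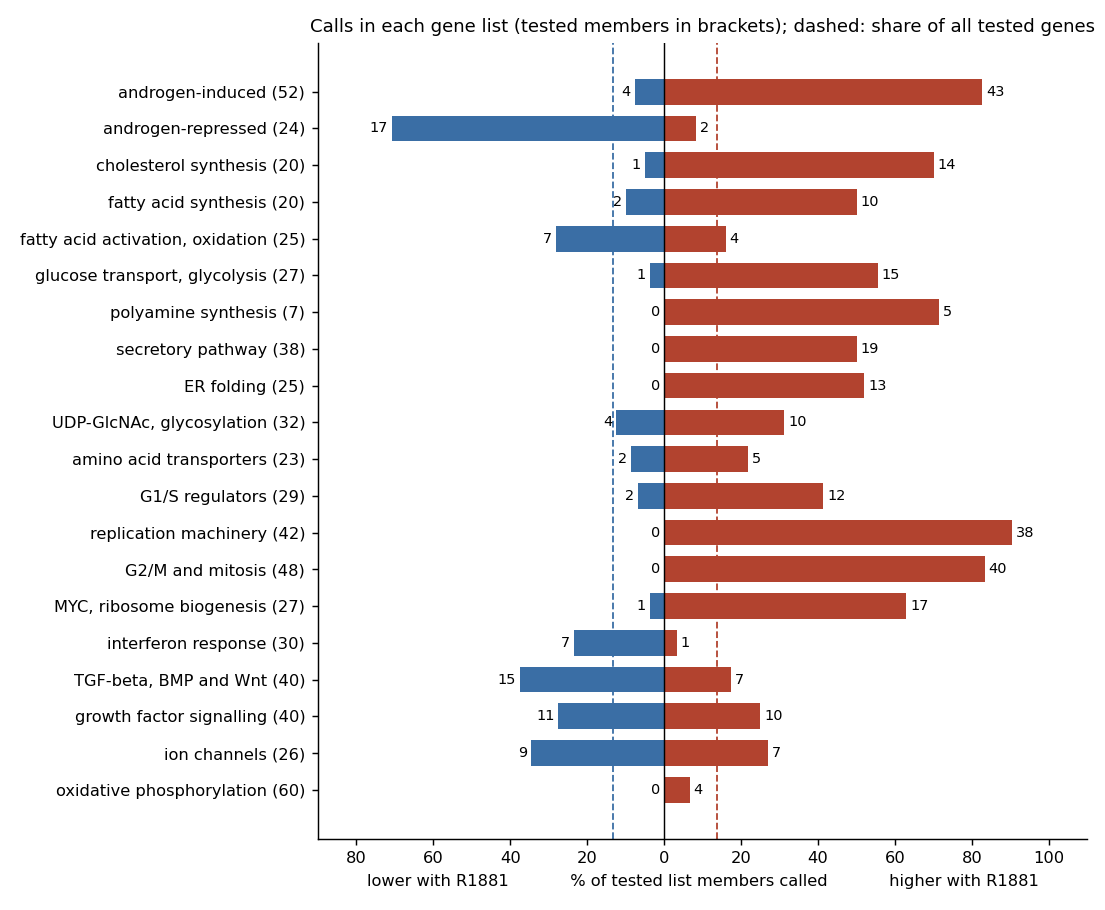
Share of the tested members of 20 gene lists called higher (red, right) or lower (blue, left) with R1881 than with vehicle, with control siRNA. Numbers at the bars are counts of genes, brackets give tested members, and dashed lines mark the shares of all 15185 tested genes (13.8% higher and 13.2% lower). The replication list (38 of 42) and the G2/M list (40 of 48) have the highest shares called higher among the 20 lists plotted, and the androgen-repressed list (17 of 24) the highest share called lower. The lists were chosen with earlier results of these data known.

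Of 11 tested coactivators of steroid hormone action 2 were higher and 3 lower, beside 13.8% and 13.2% of all genes. The p160 coactivators fell together: NCOA1, NCOA2 and NCOA3, which bind nuclear receptors and recruit histone acetyltransferases, changed by -0.47 ± 0.07, -0.79 ± 0.07 and -0.76 ± 0.15 on the log2 scale. Without vehicle replicate 1, vehicle replicate 2, R1881 replicate 2 or R1881 replicate 3, 1 of the 11 was higher. TLE3, a corepressor of the Groucho family, also fell (-0.88 ± 0.17). The pioneer factors FOXA1 (-0.15 ± 0.07) and HOXB13 (-0.31 ± 0.12) did not pass the test. With the replicate block, which fits the replicate number as a term, both were called lower, FOXA1 at -0.15, adjusted p = 0.0485 and HOXB13 at -0.30, adjusted p = 0.00459. HOXB13 was also called without vehicle replicate 1 or vehicle replicate 2 (adjusted p from 0.0356 to 0.0426).

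GATA2, a zinc finger factor that works at enhancers, had 228, 217 and 269 CPM with R1881, against 306, 306 and 487 CPM with vehicle. Its vehicle replicate 3 was far above the other vehicle libraries, and the call (log2 fold change -0.62 ± 0.18 SE, adjusted p = 0.0145) was lost without that library (-0.37, adjusted p = 0.0672), without R1881 replicate 1 (-0.59, adjusted p = 0.0551) and without R1881 replicate 2 (-0.57, adjusted p = 0.0695). GRHL2 (log2 fold change 0.21 ± 0.06 SE, adjusted p = 0.024) lost its call without vehicle replicate 1, vehicle replicate 2 or R1881 replicate 3 (adjusted p = 0.0844, 0.0786 and 0.105). Of 11 tested chaperones, FKBP5 and FKBP4 were called higher. FKBP5, a co-chaperone of steroid receptors, had 593, 553 and 681 CPM with R1881, against 57.0, 60.6 and 48.0 CPM with vehicle, an 11.0-fold higher level (log2 fold change 3.46 ± 0.13 SE, adjusted p = 5.33e-11). FKBP4 changed little (log2 fold change 0.27 ± 0.08 SE, adjusted p = 0.0166) and lost its call without vehicle replicate 1, vehicle replicate 2 or R1881 replicate 2 (adjusted p = 0.0710, 0.0692 and 0.0618). With the replicate block 5 of the 11 chaperones were higher, and 4 without vehicle replicate 3. The block also gave 3 higher and 4 lower of the 7 lineage factors, against 2 and 1 without it, and 2 higher and 2 lower of the 7 corepressors, against 0 and 1. Over all genes it gave 3445 higher and 2947 lower, against 2093 and 2012.

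The kallikreins are secreted serine proteases whose genes lie side by side on chromosome 19, and KLK3 encodes prostate-specific antigen. Of 15 kallikrein genes, 4 had enough counts to be tested, and all 4 rose (background 13.8%). KLK3 (ENSG00000142515.14, chr19:50854915-50860764) had 1717, 1650.3 and 1717 CPM with R1881, against 115, 113 and 103 CPM with vehicle. Each group was tight, and the groups lay 15.4-fold apart (log2 fold change 3.95 ± 0.13 SE, adjusted p = 9.63e-12). KLK2 (ENSG00000167751.12, chr19:50861568-50880567), which encodes a protease that can activate prostate-specific antigen, had 440.5, 399 and 459.7 CPM with R1881, against 9.90, 9.41 and 9.41 CPM with vehicle (log2 fold change 5.50 ± 0.16 SE, adjusted p = 8.11e-12). That was a 45.2-fold higher level with R1881, with no overlap between the groups. KLK4 rose 3.47-fold (adjusted p = 2.94e-05) and KLK15 by 1.66 ± 0.41 on the log2 scale (adjusted p = 0.00614). KLK2 and KLK3 share long stretches of sequence, and how the counting assigned reads that match both was not given. Together they held 0.218%, 0.206% and 0.216% of all counts with R1881, against 0.0128%, 0.0125% and 0.0115% with vehicle.

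The promoter windows of KLK3 (chr19:50854665-50854964) and KLK2 (chr19:50873189-50873488), both on the plus strand of GRCh38.p14 from RefSeq and running from 250 bases before to 50 bases after the gene's start, are shown because these neighbouring genes rose together and their windows resemble each other. The RefSeq start of KLK2 lies inside the gene as GENCODE draws it. Capitals in KLK3 mark AGAACA, a half-site of the androgen response element, which begins at base -170 from the start. Capitals in KLK2 mark the 14 bases that both windows share at this place.
KLK3: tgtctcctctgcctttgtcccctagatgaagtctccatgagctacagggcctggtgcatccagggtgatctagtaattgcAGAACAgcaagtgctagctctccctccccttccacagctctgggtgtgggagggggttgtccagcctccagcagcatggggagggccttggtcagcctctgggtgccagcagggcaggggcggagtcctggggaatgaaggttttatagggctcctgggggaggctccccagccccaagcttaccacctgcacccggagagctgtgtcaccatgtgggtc
KLK2: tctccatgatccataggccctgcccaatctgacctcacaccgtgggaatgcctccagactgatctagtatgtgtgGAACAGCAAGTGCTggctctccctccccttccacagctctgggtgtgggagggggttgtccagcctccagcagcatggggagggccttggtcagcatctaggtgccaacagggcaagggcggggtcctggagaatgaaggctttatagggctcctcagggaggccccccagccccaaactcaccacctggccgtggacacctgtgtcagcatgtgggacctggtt
Laid over each other without gaps, the windows had 225 of 294 bases in common (76.5%). The shared run begins with GAACA, at base -169 in KLK3 and at base -175 in KLK2. The base before it completes the half-site in KLK3 and is another base in KLK2, so the 6 letters searched are in the KLK3 window only. Half-sites that differ from these letters were not searched for in either window.

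The half-site AGAACA, searched on both strands, was present in 14.8% of all 35116 RefSeq promoter windows and in 8.82% of the 10105 windows of tested genes. It was in 9.31% of the windows of genes called higher (144 of 1547) and in 9.54% of those called lower (132 of 1384). Among genes called at least 8-fold higher it was in 11 of 53 windows (20.8%), and among those at least 8-fold lower in 7 of 49 (14.3%). With KLK3, FKBP5 and PMEPA1 were the androgen-induced genes with a match, 3 of the list's 38 windows (7.89%), below the share of tested genes. The full palindromic element, in which a second half-site follows in reverse after 3 free bases, was in no window of a tested gene and in 1 of the 35116. A match describes the letters of these windows only.

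Of 52 genes listed here as androgen-induced, 43 rose and 4 fell with R1881, against 13.8% and 13.2% of all genes. Their median log2 fold change was 1.69. The list was written with earlier results of these data known, so its direction is not independent evidence. Among products of the cell surface, TMPRSS2, a transmembrane serine protease whose promoter is fused to ETS genes in many prostate cancers, had 726, 733 and 892 CPM with R1881, against 94.2, 97.9 and 106 CPM with vehicle (log2 fold change 2.98 ± 0.10 SE, adjusted p = 8.11e-12). SLC45A3, a transporter also known as prostein, rose 8.27-fold (384, 359.6 and 459 CPM with R1881, against 45.5, 42.1 and 57.7 CPM with vehicle). STEAP4, a metalloreductase, had 10.4, 10.8 and 17.2 CPM with R1881, against 0.0767, 0 and 0.0667 CPM with vehicle, a count ratio of 265 with a 95% counting interval of 73.0 to 2195. TRPM8, a cation channel of cold sensing, rose 25.9-fold (log2 fold change 4.70 ± 0.23 SE, adjusted p = 8.7e-10). ORM1, which encodes an acute-phase glycoprotein, averaged 2.49 ± 0.708 CPM with R1881 and had no count with vehicle.

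All 14 regulators in the list changed, 12 of them upwards. MAF, a basic leucine zipper factor, rose 6.26-fold (105, 90.8 and 106 CPM with R1881, against 15.7, 15.6 and 16.9 CPM with vehicle; adjusted p = 1.39e-09), and the elongation factor gene ELL2 (2.07 ± 0.14), the stress gene NDRG1 (1.64 ± 0.18) and the kinase gene SGK1 (1.53 ± 0.22) also rose. KLF9 (-0.41 ± 0.09) and TSC22D3 (-0.41 ± 0.10), known targets of the glucocorticoid receptor as well, fell. Both calls for a fall rest on the fit to 18 libraries, since a fit to the 6 libraries alone called neither. Of the 20 metabolic members 18 rose and none fell. HPGD, which breaks down prostaglandins, averaged 7.24 ± 1.65 CPM with R1881 and 0.308 ± 0.0908 CPM with vehicle. SORD, which makes fructose from sorbitol, had 934, 896 and 1001 CPM with R1881, against 343, 342 and 363 CPM with vehicle (log2 fold change 1.43 ± 0.07 SE, adjusted p = 1.02e-09). The 4 members of the list that fell were FOLH1, ACPP, KLF9 and TSC22D3. FOLH1, which encodes prostate-specific membrane antigen, had 859, 893 and 765 CPM with R1881, against 1636, 1656 and 1199.9 CPM with vehicle (log2 fold change -0.84 ± 0.11 SE, adjusted p = 4.06e-05), and ACPP, which encodes prostatic acid phosphatase, changed by -0.73 ± 0.07.

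**Figure D2:**
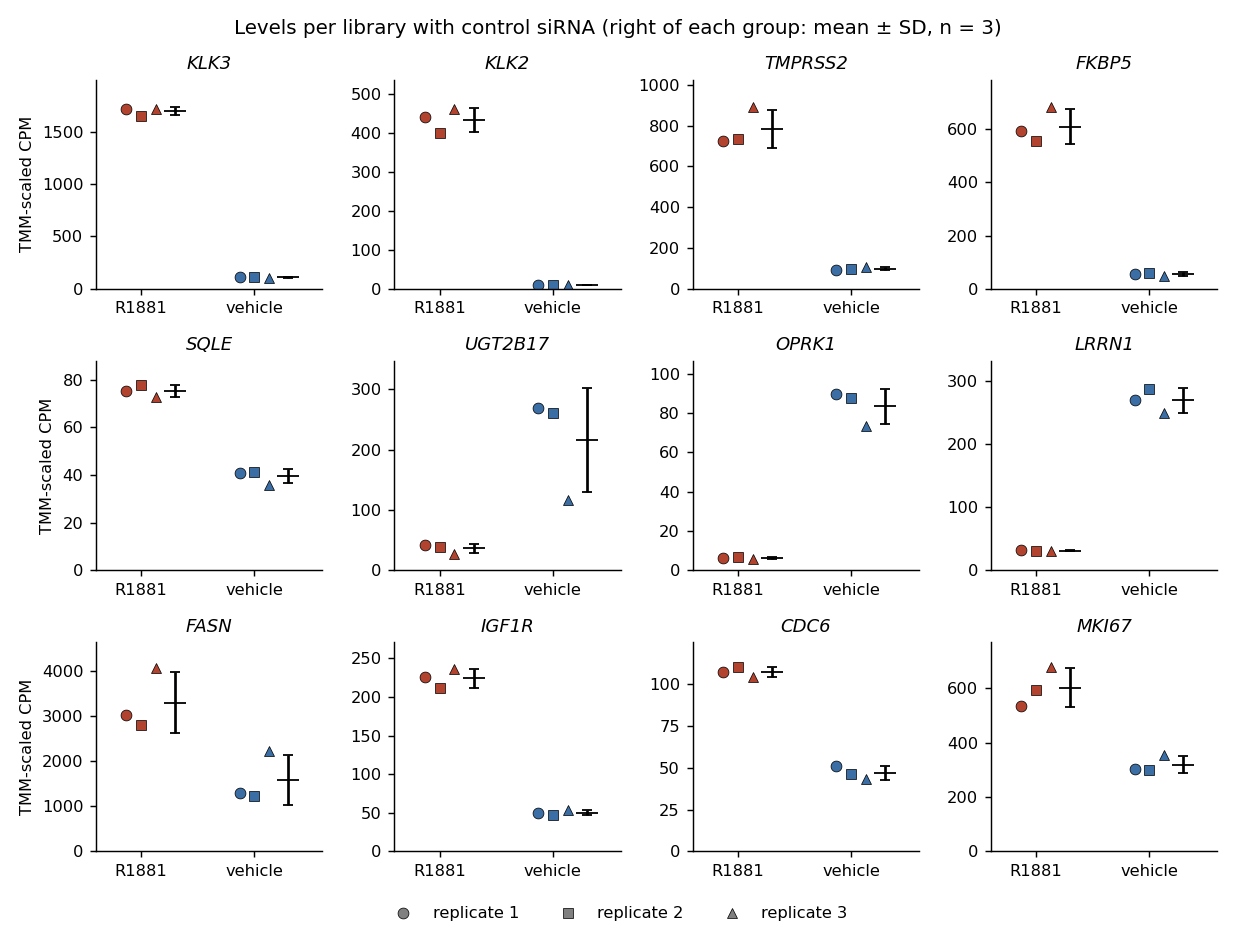
Levels of 12 genes in each library with control siRNA, in TMM-scaled CPM on linear axes that start at 0. Red points at the left of each panel are R1881 libraries and blue points at the right vehicle libraries, with the symbol giving the replicate number and the black marks the mean ± SD (n = 3). The groups do not overlap in any of the 12 panels, and vehicle replicate 3 lies apart for UGT2B17 (116.2 CPM, against 269 and 261 CPM in the other vehicle libraries).

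The largest rises by fold, among called genes whose log2 CPM averaged 1 or more, belonged mostly to genes with few or no counts with vehicle. SLC38A4, an amino acid transporter, had 9.02, 7.14 and 7.35 CPM with R1881, against 0, 0 and 0 CPM with vehicle, and was at least 112-fold higher when the vehicle group is set at its floor of 3 counts. SLC2A3, a glucose transporter of high affinity, had 3.81, 4.21 and 5.10 CPM with R1881, against 0, 0 and 0 CPM with vehicle, at least 61.1-fold higher on the same floor. CCDC141 rose 206-fold (22.6, 20.1 and 21.7 CPM with R1881, against 0.230, 0 and 0.0667 CPM with vehicle). Its vehicle libraries held 4 counts, 3 of them in replicate 1, and its log2 fold change of 7.69 ± 0.36 was 8.94 without that library. PGC, which encodes the protease zymogen progastricsin, rose 61.7-fold (6.74, 6.00 and 6.49 CPM with R1881, against 0.0767, 0.138 and 0.0667 CPM with vehicle), and CHRNA2, a nicotinic receptor subunit, 57.2-fold (63.5, 58.6 and 77.0 CPM with R1881, against 0.767, 1.38 and 1.27 CPM with vehicle). The natriuretic peptide gene NPPC (5.72 ± 0.40), the long non-coding RNA LINC01297 (6.11 ± 0.46), the catenin gene CTNNA2 (5.84 ± 0.53), the tubulin gene TUBA3D (5.57 ± 0.34) and TTN (5.48 ± 0.57) complete the 12 with STEAP4 and KLK2. TUBA3D has near-identical copies and TTN an antisense partner, so their counts are uncertain. With 1 to 3 counts over the vehicle libraries, the count ratio was 77.9 (95% counting interval 26.3 to 381) for LINC01297, 81.7 (95% counting interval 14.2 to 3269) for CTNNA2 and 53.4 (95% counting interval 14.4 to 447) for TTN. Without vehicle replicate 1, which held every vehicle count of CTNNA2 and TTN, their fitted log2 fold changes were 7.59 and 8.01, and that of LINC01297 was 6.90 without vehicle replicate 3. Other than for KLK2 and CHRNA2, reads per vehicle library were few, and a fold change against so few depends on the prior count.

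Genes with the smallest p among those that rose included IGF1R (log2 fold change 2.15 ± 0.07 SE, adjusted p = 8.11e-12), the potassium channel gene KCNMA1 (log2 fold change 2.71 ± 0.10 SE, adjusted p = 5.04e-11), the transcription regulator gene AFF3 (log2 fold change 2.60 ± 0.11 SE, adjusted p = 2.21e-10), the sialyltransferase gene ST6GALNAC1 (log2 fold change 4.66 ± 0.21 SE, adjusted p = 2.49e-10) and PMEPA1 (log2 fold change 2.49 ± 0.11 SE, adjusted p = 2.49e-10), an inhibitor of TGF-beta signalling. PMEPA1 had 257, 249 and 302 CPM with R1881, against 42.1, 45.0 and 56.2 CPM with vehicle.

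Of 24 tested genes listed as androgen-repressed, 17 fell and 2 rose (13.2% and 13.8% of all genes), with a median log2 fold change of -1.46. This list too was written with earlier results of these data known, so its direction is not independent evidence. OPRK1, the kappa opioid receptor, had 5.94, 6.50 and 5.45 CPM with R1881, against 89.6, 87.5 and 73.1 CPM with vehicle, a 13.9-fold lower level (log2 fold change -3.80 ± 0.15 SE, adjusted p = 5.33e-11). LRRN1, a leucine-rich repeat membrane protein of neural cells, had 32.3, 30.6 and 30.1 CPM with R1881, against 271, 288 and 249 CPM with vehicle (log2 fold change -3.12 ± 0.10 SE, adjusted p = 8.11e-12). CAMK2N1, an inhibitor of calcium/calmodulin-dependent kinase II, had 102, 89.4 and 83.9 CPM with R1881, against 356, 361 and 348 CPM with vehicle (log2 fold change -1.95 ± 0.09 SE, adjusted p = 5.4e-10). In all of these the R1881 libraries lay close together and well below the vehicle libraries. DDC (-2.40 ± 0.13), which makes dopamine and serotonin from their precursors, ACKR3 (-1.84 ± 0.21), a decoy chemokine receptor, and NTS (-1.45 ± 0.49), which encodes neurotensin, also fell, NTS losing its call without R1881 replicate 1, R1881 replicate 3 or vehicle replicate 2 (adjusted p from 0.104 to 0.219). The 2 that rose were PIK3AP1 (1.45 ± 0.12), a PI3 kinase adaptor, and UGT2B28 (2.01 ± 0.29). Without vehicle replicate 3, 3 of the 16 receptors and signalling genes were higher in place of 1.

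The UDP-glucuronosyltransferases of the 2B family attach glucuronic acid to androgens, which are then excreted. UGT2B17 had 42.4, 38.4 and 27.4 CPM with R1881, against 269, 261 and 116.2 CPM with vehicle (log2 fold change -2.58 ± 0.28 SE, adjusted p = 4.11e-06), with vehicle replicate 3 below the other vehicle libraries. UGT2B15 had 9.15, 8.43 and 5.19 CPM with R1881, against 71.0, 57.4 and 38.7 CPM with vehicle (log2 fold change -2.86 ± 0.24 SE, adjusted p = 3.23e-07), and UGT2B10 also fell (-1.77 ± 0.32). UGT2B28 averaged 2.90 ± 0.185 CPM with R1881 and 0.724 ± 0.414 CPM with vehicle, so it moved against its relatives. UGT2B11 did not pass the test (-0.29 ± 0.18), but was called lower without vehicle replicate 3 (adjusted p = 0.0231). These genes are near-identical over long stretches, so their single values are uncertain.

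Beyond these lists, the largest falls among genes whose log2 CPM averaged 1 or more were those of DAB1, a neuronal adaptor (0, 0.4999 and 0.260 CPM with R1881, against 9.13, 9.13 and 9.81 CPM with vehicle; log2 fold change -5.19 ± 0.41 SE, adjusted p = 1.37e-07), and of the cytokine gene IL1B, which had 0, 0.143 and 0 CPM with R1881, against 2.15, 1.45 and 2.40 CPM with vehicle, a count ratio of 40.6 for vehicle over R1881 (95% counting interval 10.9 to 340.4). Without R1881 replicate 2 the log2 fold change was -6.25 for DAB1 and -7.67 for IL1B, whose R1881 counts all lay in that library, so that its fitted value then depends on the prior count, and without R1881 replicate 1 it was -4.55 for DAB1. The matrix gene CCDC80 fell 31.5-fold (log2 fold change -4.98 ± 0.31 SE, adjusted p = 9.36e-09), the amine oxidase gene AOC1 20.3-fold, the muscle gene MYOZ1 17.2-fold, the death-associated kinase gene DAPK1 13.6-fold, the phospholipase gene PLD1 13.6-fold and the mannosidase gene MAN1A1 13.3-fold. PCDH11X (-3.55 ± 0.22), a protocadherin, MATN2 (-3.52 ± 0.20), a matrix protein, and KCNK3 (-3.51 ± 0.60), a potassium channel, were also among the 12. KCNK3 had 0.0668, 0.0714 and 0 CPM with R1881, against 0.998, 0.346 and 0.667 CPM with vehicle, 2 counts over the R1881 group, and a count ratio of 13.4 for vehicle over R1881 (95% counting interval 3.37 to 115.8). AOC1 had 0.668, 1.21 and 1.99 CPM with R1881, against 19.6, 20.0 and 37.2 CPM with vehicle, with vehicle replicate 3 far above the others.

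The falls with the smallest p were led by GRB10 and LRRN1. GRB10, an adaptor that dampens insulin and IGF receptor signalling, had 181, 199.9 and 178 CPM with R1881, against 915, 908 and 1006 CPM with vehicle (log2 fold change -2.34 ± 0.07 SE, adjusted p = 8.11e-12). CSMD1, a large membrane protein, had 62.8, 57.6 and 53.8 CPM with R1881, against 349, 354 and 387 CPM with vehicle, and COL5A2, a fibrillar collagen chain, had 11.8, 12.6 and 11.9 CPM with R1881, against 92.1, 97.9 and 97.5 CPM with vehicle. MYRIP (-2.55 ± 0.10), MAPRE2 (-2.09 ± 0.09), MID1 (-2.70 ± 0.14), TMEM140 (-1.94 ± 0.10) and TULP4 (-1.54 ± 0.09) fell with them, without overlap between the groups. Collagen genes are also markers of fibroblasts. Summed fibroblast and muscle markers came to 14.6 to 17.9 CPM with R1881 and 21.3 to 40.1 CPM with vehicle, 5 of the 10 had no count, and the part of such cells in these falls was not tested. COL1A1 (log2 fold change -0.71 ± 0.21 SE, adjusted p = 0.02) lost its call without vehicle replicate 3, R1881 replicate 1 or R1881 replicate 2 (adjusted p = 0.107, 0.0582 and 0.0890), and COL3A1 fell (log2 fold change -1.80 ± 0.24 SE, adjusted p = 4.08e-05).

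Of 20 tested enzymes of steroid synthesis and interconversion 4 rose and 4 fell (13.8% and 13.2% of all genes). The rises were led by CYP11A1, the side-chain cleavage enzyme that starts steroid synthesis, which had 2.60, 2.50 and 2.60 CPM with R1881, against 0.153, 0 and 0.133 CPM with vehicle (log2 fold change 4.63 ± 0.42 SE, adjusted p = 6.7e-07), and HSD17B2, which inactivates testosterone and estradiol (log2 fold change 5.51 ± 1.45 SE, adjusted p = 0.0187) and lost its call without R1881 replicate 1 (adjusted p = 0.0662). The falls were those of the aldo-keto reductases AKR1C1 (-2.22 ± 0.43), AKR1C2 (-1.26 ± 0.42) and AKR1C3 (-2.78 ± 0.30), which are near-identical in sequence, and of HSD17B14 (-1.29 ± 0.22). AKR1C2 lost its call without R1881 replicate 1, R1881 replicate 3, vehicle replicate 1 or vehicle replicate 2 (adjusted p from 0.0937 to 0.131). AKR1C3, which makes testosterone from androstenedione, was at a low level throughout (0.267, 0.286 and 0.260 CPM with R1881, against 1.69, 1.73 and 2.34 CPM with vehicle). Without R1881 replicate 1, 2 of the 20 enzymes were higher. Of 32 tested nuclear receptor genes 5 rose and 6 fell (13.8% and 13.2% of all genes), so 34.4% were called, near the 27.0% of all genes. PGR, the progesterone receptor, had 0, 0.143 and 0 CPM with R1881, against 2.07, 2.35 and 1.73 CPM with vehicle, a count ratio of 41.5 for vehicle over R1881 (95% counting interval 11.2 to 348). The retinoic acid receptor RARB (1.17 ± 0.16), the thyroid hormone receptor THRB (0.64 ± 0.11) and the orphan receptor NR4A1 (1.18 ± 0.23) rose, and NR4A2 fell (-1.95 ± 0.59), a call lost without R1881 replicate 3 or vehicle replicate 2 (adjusted p from 0.0682 to 0.0785). Without R1881 replicate 2, which held the R1881 counts of PGR, the fitted log2 fold change of PGR was -7.70, a value that depends on the prior count. NR3C1, the glucocorticoid receptor, did not pass the test (-1.73 ± 0.62, adjusted p = 0.0512). It was called lower with the replicate block (-1.74, adjusted p = 0.0279) and without R1881 replicate 2 or vehicle replicate 3 (adjusted p from 0.0256 to 0.0365). With the replicate block 8 of the 28 receptors for ligands other than steroid hormones, orphans included, were lower, against 4 without it.

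Many genes that make and carry secreted proteins rose with R1881. Of 38 tested genes for vesicle coats, translocation into the endoplasmic reticulum (ER) and retrieval from the Golgi, 19 rose and none fell, against 13.8% and 13.2% of all genes, with a median log2 fold change of 0.403. SEC24D, a cargo-binding coat protein of COPII vesicles, had 66.3, 71.3 and 78.1 CPM with R1881, against 30.2, 31.0 and 29.8 CPM with vehicle (log2 fold change 1.24 ± 0.08 SE, adjusted p = 2.17e-08). KDELR2 (0.79 ± 0.09) and KDELR3 (0.93 ± 0.15), receptors that return ER proteins, SSR3 (1.07 ± 0.29), of the translocon, and LMAN1 (0.76 ± 0.19), a cargo receptor, rose as well. With the replicate block 29 of the 38 were higher, with replicates 1 and 2 only 31, and in the fit to the 6 libraries alone 3. Over all genes those fits called 3445, 3851 and 915 higher, against 2093. Of 25 ER chaperones and oxidoreductases 13 rose and none fell. PDIA5 had 65.9, 62.6 and 75.2 CPM with R1881, against 22.6, 22.6 and 26.2 CPM with vehicle (log2 fold change 1.51 ± 0.11 SE, adjusted p = 8.57e-08), and PDIA4 (0.60 ± 0.09) and MANF (0.67 ± 0.12) rose less. HSPA5, the main ER chaperone, did not pass the test (log2 fold change 0.20 ± 0.08 SE, adjusted p = 0.0688), but was called higher with the replicate block (0.21, adjusted p = 0.0185) and without vehicle replicate 1 (adjusted p = 0.0345). The block gave 23 of 25, and leaving out R1881 replicate 1 or R1881 replicate 2 gave 8.

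Among 11 sensors and factors of ER stress, 6 rose and 1 fell. CREB3L2 had 105, 109 and 109 CPM with R1881, against 55.1, 56.0 and 55.8 CPM with vehicle (log2 fold change 0.96 ± 0.07 SE, adjusted p = 1.06e-07), and CREB3L4, a factor of the same family found mainly in prostate, had 130.4, 126 and 139.8 CPM with R1881, against 51.0, 57.3 and 68.9 CPM with vehicle (log2 fold change 1.16 ± 0.11 SE, adjusted p = 1.13e-06). ERN1, the sensor also known as IRE1, rose 1.81-fold (adjusted p = 3.33e-06). DDIT3, the stress factor CHOP, fell (log2 fold change -0.71 ± 0.13 SE, adjusted p = 0.000811), and ATF4 did not pass the test (-0.22 ± 0.13; with the block -0.21, adjusted p = 0.044). The block gave 3 of the 11 lower. The ER stress response element, CCAAT and CCACG with 9 free bases between them, was in the promoter windows of 6 of the 23 chaperone genes with a window (26.1%), beside 0.139% of tested genes and 0.0769% of all windows. Of those 6 genes only HSP90B1 was called higher (log2 fold change 0.56 ± 0.18 SE, adjusted p = 0.0303), and it lost its call without R1881 replicate 1 or R1881 replicate 2 (adjusted p from 0.0735 to 0.0977). Of the 17 without the element, 11 were higher.

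UDP-GlcNAc is the sugar donor for N-linked glycans. Its synthesis genes UAP1 (379.6, 379 and 324 CPM with R1881, against 101, 94.98 and 62.9 CPM with vehicle; log2 fold change 2.06 ± 0.17 SE, adjusted p = 2.25e-07), PGM3 (0.96 ± 0.21) and GNPNAT1 (1.07 ± 0.27) rose, and no other member of the 10 was called. All 3 were lower in vehicle replicate 3 than in the other vehicle libraries. Of 22 glycosyltransferases 7 rose and 4 fell (13.8% and 13.2% of all genes). ST6GALNAC1, which makes the sialyl-Tn antigen, had 32.5, 34.6 and 35.6 CPM with R1881, against 1.30, 1.38 and 1.33 CPM with vehicle, a 25.3-fold rise, and GALNT12 (2.14 ± 0.29) and GALNT7 (1.58 ± 0.23), which start O-linked glycans, rose too. GALNT10 (87.6, 84.1 and 82.4 CPM with R1881, against 188, 194 and 198 CPM with vehicle; log2 fold change -1.19 ± 0.07 SE, adjusted p = 4.95e-09) and ST3GAL1 (-0.68 ± 0.07) fell.

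Of 20 cholesterol synthesis genes 14 rose and 1 fell, with a median log2 fold change of 0.738 (all genes 0.00182). SQLE, which oxidises squalene, had 75.2, 77.8 and 72.9 CPM with R1881, against 41.0, 41.2 and 36.0 CPM with vehicle (log2 fold change 0.94 ± 0.08 SE, adjusted p = 6.32e-07), with no overlap between the groups, and FDFT1 (0.95 ± 0.09), which makes squalene, rose. TM7SF2, a sterol reductase, fell (log2 fold change -1.02 ± 0.18 SE, adjusted p = 0.000489). INSIG1, which holds back the sterol response, rose by 1.51 ± 0.14. The cholesterol exporters ABCA1 (0.601, 1.29 and 1.30 CPM with R1881, against 11.7, 12.2 and 12.0 CPM with vehicle; log2 fold change -3.50 ± 0.20 SE, adjusted p = 4.15e-09) and ABCG1 (log2 fold change -1.51 ± 0.13 SE, adjusted p = 2.43e-07) fell, the first 11.3-fold. The replicate block gave 17 of the 20 synthesis genes higher, and the fit to the 6 libraries alone called 8.

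Of 20 genes of fatty acid synthesis, elongation and desaturation 10 rose and 2 fell. ACACA, which makes malonyl-CoA, had 818, 860.0 and 931 CPM with R1881, against 475, 460.1 and 446 CPM with vehicle (log2 fold change 0.92 ± 0.06 SE, adjusted p = 1.71e-08), and FASN, the fatty acid synthase, had 3012, 2794 and 4055 CPM with R1881, against 1300.5, 1231 and 2215 CPM with vehicle (log2 fold change 1.05 ± 0.22 SE, adjusted p = 0.00176). FASN was highest within each group in replicate 3. FADS1 (1.01 ± 0.08) and SCD (0.71 ± 0.06), which desaturate fatty acids, and the elongases ELOVL2 (4.43 ± 0.46), ELOVL5 (1.71 ± 0.22) and ELOVL7 (3.11 ± 0.39) rose, while ELOVL4 (-1.82 ± 0.64) fell, a call lost without R1881 replicate 1, R1881 replicate 3, vehicle replicate 1 or vehicle replicate 2 (adjusted p from 0.0814 to 0.225). Of 25 genes of activation, storage and oxidation 4 rose and 7 fell (13.8% and 13.2% of all genes), the share that rose being near that of all genes. ACSL3, which activates long-chain fatty acids, had 576, 571 and 537 CPM with R1881, against 134, 139 and 80.9 CPM with vehicle (log2 fold change 2.25 ± 0.22 SE, adjusted p = 1.26e-06). The trifunctional protein subunits HADHA (-0.46 ± 0.06) and HADHB (-0.69 ± 0.11) and DECR1 (-0.54 ± 0.11), all of beta-oxidation, fell. Without vehicle replicate 3, 7 of the 25 were higher in place of 4.

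Of 27 genes of glucose transport and glycolysis 15 rose and 1 fell (13.8% and 13.2% of all genes). HK2, the hexokinase bound to mitochondria, had 98.9, 98.7 and 91.2 CPM with R1881, against 33.0, 35.6 and 32.7 CPM with vehicle (log2 fold change 1.51 ± 0.10 SE, adjusted p = 2.55e-08), and LDHA, a lactate dehydrogenase subunit, had 1092, 987 and 989.5 CPM with R1881, against 552, 507 and 467 CPM with vehicle (log2 fold change 1.01 ± 0.12 SE, adjusted p = 1.19e-05). PFKM fell (-0.31 ± 0.07), and GAPDH (0.11 ± 0.16) and PKM (0.11 ± 0.14) did not pass the test. Of 9 genes of the pentose phosphate and polyol routes 3 rose, RPIA (0.61 ± 0.14) and PGD (0.36 ± 0.09) beside SORD, and 5 without vehicle replicate 3 or with the replicate block. Of 23 amino acid transporters 5 rose and 2 fell (30.4% called, near the 27.0% of all genes). SLC43A1, a transporter of branched-chain amino acids, had 66.0, 68.1 and 87.9 CPM with R1881, against 13.7, 15.1 and 16.9 CPM with vehicle (log2 fold change 2.28 ± 0.17 SE, adjusted p = 6.49e-08), and SLC1A5, a glutamine transporter, rose by 0.96 ± 0.14. SLC7A5, the large neutral amino acid transporter, fell (log2 fold change -1.81 ± 0.28 SE, adjusted p = 0.000172), while SLC3A2, its partner chain, did not pass the test (-0.06 ± 0.09). Of 16 amino acid synthesis genes 5 rose, led by GNMT, which methylates glycine (24.5, 26.9 and 37.1 CPM with R1881, against 3.68, 3.74 and 3.87 CPM with vehicle; log2 fold change 2.97 ± 0.19 SE, adjusted p = 1.43e-08), GOT1 (0.60 ± 0.07) and GOT2 (0.44 ± 0.07), and 8 with the block.

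Polyamines are made in large amounts by the prostate. Of 7 polyamine synthesis genes 5 rose. ODC1, the rate-limiting decarboxylase, had 670.0, 659 and 777 CPM with R1881, against 298, 305 and 241 CPM with vehicle (log2 fold change 1.32 ± 0.11 SE, adjusted p = 3.67e-07), SMS, which makes spermine, had 315, 306 and 339.8 CPM with R1881, against 122, 122 and 97.8 CPM with vehicle (log2 fold change 1.49 ± 0.11 SE, adjusted p = 8.27e-08), and ARG2 rose by 0.53 ± 0.09. Of 9 genes of catabolism and control, SAT1, which acetylates polyamines for export, rose (0.72 ± 0.09) and SAT2 fell (log2 fold change -0.31 ± 0.09 SE, adjusted p = 0.0188). SAT2 lost its call without R1881 replicate 1, R1881 replicate 2 or vehicle replicate 3 (adjusted p = 0.0613, 0.0808 and 0.0556), while the block gave 2 higher and 4 lower of the 9. The prostate also secretes zinc and citrate. Of 22 zinc transporters and metallothioneins 4 rose and 4 fell, beside 13.8% and 13.2% of all genes, among them SLC39A7 (0.65 ± 0.08), SLC39A14 (0.33 ± 0.06) and SLC30A10 (-1.54 ± 0.25). With the replicate block 10 of the 22 were higher, beside 3445 of all 15185 genes. Of 14 genes of the citrate cycle and citrate export 5 rose and 1 fell. ANKH, which exports citrate and pyrophosphate, had 204, 206 and 238 CPM with R1881, against 77.0, 79.0 and 94.0 CPM with vehicle (log2 fold change 1.37 ± 0.09 SE, adjusted p = 1.21e-08), IDH1 rose (1.11 ± 0.15) and ACO1 fell (-0.34 ± 0.08).

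Few subunit genes of oxidative phosphorylation were called. Of 60 tested subunit genes 4 rose and none fell (6.67% called, against 27.0% of all genes), and their median log2 fold change was -0.0156. The 4 were ATP5G1 (0.45 ± 0.14), ATP5G3 (0.21 ± 0.07), COX5A (0.21 ± 0.07) and UQCRFS1 (0.24 ± 0.08). Leaving out any single library reduced the 4 to between 0 and 2, and the count was 8 with the replicate block, 2 others then being lower. No mitochondrially encoded gene of 13 was called. MT-CO1, the one with the smallest p, had 10583, 11563 and 12993 CPM with R1881, against 12256, 12512 and 14344 CPM with vehicle (log2 fold change -0.15 ± 0.09 SE, adjusted p = 0.221), and was called lower with the block (-0.16, adjusted p = 0.0206), as was 1 other.

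**Figure D3:**
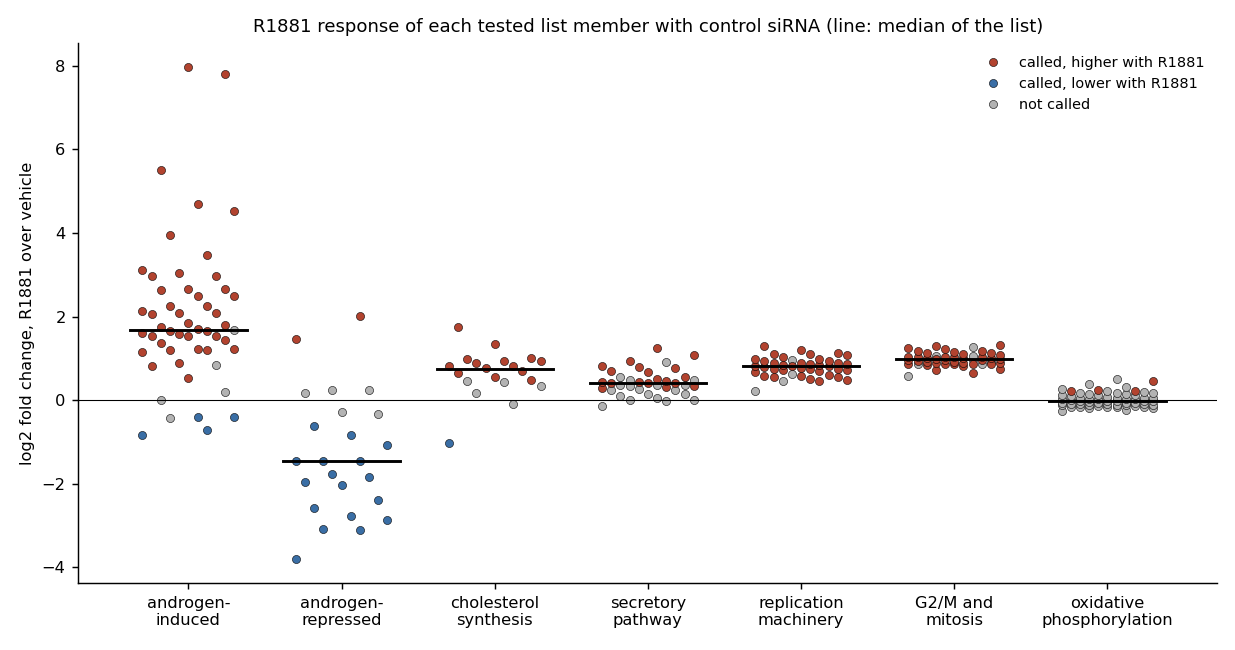
Log2 fold change of R1881 over vehicle with control siRNA for each tested member of 7 gene lists, red where called higher, blue where called lower and grey where not called; black lines are the medians. The androgen-induced list runs from -0.836 to 7.97, whereas all 42 replication genes lie between 0.222 and 1.29 and all 48 G2/M genes between 0.566 and 1.32.

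Cell cycle genes rose with R1881. Of 42 genes of the replication machinery 38 rose and none fell, with a median log2 fold change of 0.819, beside 13.8% of all genes higher. All 42 had a positive value, and the 4 not called were POLE (0.22 ± 0.12), TK1 (0.46 ± 0.19), CDT1 (0.63 ± 0.26) and PRIM1 (0.95 ± 0.36). These 4 were called as well with the replicate block (adjusted p from 0.000299 to 0.029), as were PRIM1 without vehicle replicate 2 and the other 3 without vehicle replicate 3. CDC6, which loads the replicative helicase, had 107, 109.9 and 104 CPM with R1881, against 51.0, 46.2 and 43.0 CPM with vehicle (log2 fold change 1.19 ± 0.09 SE, adjusted p = 1.06e-07). FEN1, a nuclease of Okazaki fragments, had 134, 134 and 139 CPM with R1881, against 61.8, 61.1 and 69.5 CPM with vehicle (log2 fold change 1.08 ± 0.08 SE, adjusted p = 6.57e-08), and TYMS, which makes thymidylate, had 159.8, 168 and 157 CPM with R1881, against 84.6, 84.6 and 75.1 CPM with vehicle (log2 fold change 0.99 ± 0.08 SE, adjusted p = 2.94e-07). The R1881 libraries lay above the vehicle libraries in each, with no overlap. Of 48 genes of G2/M and mitosis 40 rose and none fell, with a median of 0.975 and again only positive values. MKI67, the proliferation antigen, had 535, 593 and 679 CPM with R1881, against 302, 298 and 354 CPM with vehicle (log2 fold change 0.92 ± 0.15 SE, adjusted p = 0.000285). BIRC5 (0.98 ± 0.09), or survivin, and the kinesins KIF20A (1.30 ± 0.12) and KIF4A (0.96 ± 0.09) had the smallest p. With the replicate block every member of both lists was called higher (42 of 42 and 48 of 48), and in the fit to the 6 libraries alone 27 and 28. Over all genes those fits called 3445 and 915 higher, against 2093.

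The promoter windows of CDC6 (chr17:40287629-40287928), TYMS (chr18:657403-657702), MKI67 (chr10:128126374-128126673) and KIF4A (chrX:70289854-70290153) are shown as examples of the motifs these lists carry, from RefSeq (GRCh38.p14), each on the strand of its gene, which is the minus strand for MKI67 and the plus strand for the others. Capitals mark an E2F site in CDC6 (TTTGGCGC) and in TYMS (TTTCCCGC, here on the other strand), and the cell-cycle genes homology region TTTGAA in MKI67, where it occurs 2 times, and KIF4A.
CDC6: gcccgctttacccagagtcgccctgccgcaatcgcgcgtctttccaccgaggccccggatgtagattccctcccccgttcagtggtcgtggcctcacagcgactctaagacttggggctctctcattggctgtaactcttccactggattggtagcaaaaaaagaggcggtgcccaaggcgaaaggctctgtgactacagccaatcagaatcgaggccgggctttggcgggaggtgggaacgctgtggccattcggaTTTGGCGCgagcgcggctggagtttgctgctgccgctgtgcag
TYMS: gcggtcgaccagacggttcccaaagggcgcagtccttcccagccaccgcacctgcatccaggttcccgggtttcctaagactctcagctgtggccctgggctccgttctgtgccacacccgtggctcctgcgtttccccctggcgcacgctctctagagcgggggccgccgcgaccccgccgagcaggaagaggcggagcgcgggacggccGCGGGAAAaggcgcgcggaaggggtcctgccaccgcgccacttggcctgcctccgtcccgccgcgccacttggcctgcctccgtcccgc
MKI67: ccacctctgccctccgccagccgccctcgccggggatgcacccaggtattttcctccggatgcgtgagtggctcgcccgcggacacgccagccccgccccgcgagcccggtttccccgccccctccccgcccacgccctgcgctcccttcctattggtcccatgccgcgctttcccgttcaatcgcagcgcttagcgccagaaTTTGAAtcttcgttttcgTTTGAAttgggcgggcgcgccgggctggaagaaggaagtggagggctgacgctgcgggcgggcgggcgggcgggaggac
KIF4A: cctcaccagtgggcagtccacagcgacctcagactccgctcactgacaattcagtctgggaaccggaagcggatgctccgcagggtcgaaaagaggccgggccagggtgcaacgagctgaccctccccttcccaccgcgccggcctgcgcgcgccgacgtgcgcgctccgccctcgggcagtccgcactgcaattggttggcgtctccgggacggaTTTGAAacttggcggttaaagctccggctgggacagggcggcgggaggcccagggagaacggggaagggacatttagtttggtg
Either E2F site (both strands searched) was in 17 of 38 replication windows (44.7%), beside 3.77% of tested genes and 2.27% of all windows. TTTGAA was in 31 of 42 G2/M windows (73.8%), beside 9.31% of tested genes and 15.2% of all windows. Of the members, 15 of 17 replication genes with an E2F site and 19 of 21 without were called higher, as were 25 of 31 G2/M genes with TTTGAA and 10 of 11 without. The median log2 fold changes were 0.841 with an E2F site and 0.789 without, and 0.994 with TTTGAA and 0.969 without.

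Of 29 regulators of G1 and S phase 12 rose and 2 fell (13.8% and 13.2% of all genes), the share that fell being below that of all genes. E2F1 itself, which activates genes for entry into S phase, had 73.4, 68.6 and 81.2 CPM with R1881, against 35.2, 33.6 and 43.0 CPM with vehicle (log2 fold change 1.00 ± 0.16 SE, adjusted p = 0.000173), and E2F7 (1.05 ± 0.16) and E2F8 (1.09 ± 0.16), which repress the same genes, rose as well. E2F2 was at a low level and did not pass the test (3.34, 2.36 and 4.59 CPM with R1881, against 2.23, 1.45 and 3.20 CPM with vehicle; log2 fold change 0.56 ± 0.36 SE, adjusted p = 0.275). CDC25A, a phosphatase that activates CDK2, had 58.2, 56.5 and 52.1 CPM with R1881, against 31.1, 27.8 and 26.7 CPM with vehicle (log2 fold change 0.96 ± 0.10 SE, adjusted p = 1.83e-06), and CDK2 had 120.2, 120.0 and 108 CPM with R1881, against 63.1, 59.6 and 58.5 CPM with vehicle (log2 fold change 0.94 ± 0.10 SE, adjusted p = 2.05e-06). CDK6 (1.89 ± 0.33) rose, while CCND1 did not pass the test (0.09 ± 0.06). CDKN1A, the CDK inhibitor p21, fell (118, 104 and 119 CPM with R1881, against 182, 185 and 237 CPM with vehicle; log2 fold change -0.83 ± 0.12 SE, adjusted p = 5.89e-05), and RBL2 fell (-0.46 ± 0.16), a call lost without R1881 replicate 1, R1881 replicate 2, R1881 replicate 3, vehicle replicate 1 or vehicle replicate 2 (adjusted p from 0.0673 to 0.167).

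Of 27 p53 target genes 10 fell and 3 rose, beside 13.2% and 13.8% of all genes, and 14 were not called. BTG2, an antiproliferative factor, had 44.1, 44.6 and 44.6 CPM with R1881, against 77.4, 76.4 and 88.3 CPM with vehicle (log2 fold change -0.86 ± 0.09 SE, adjusted p = 5.03e-06). TP53INP1 (-1.18 ± 0.27), SESN1 (-1.08 ± 0.23) and BBC3 (-0.72 ± 0.16) also fell. PMAIP1 (1.18 ± 0.26), AEN (0.54 ± 0.09) and TNFRSF10B (0.41 ± 0.07), all of cell death, rose. MDM2 (-0.07 ± 0.23) did not pass the test. Of 30 interferon response genes 7 fell and 1 rose (26.7% called, against 27.0% of all genes), so their share was that of the background. IRF1 fell 2.71-fold (log2 fold change -1.44 ± 0.19 SE, adjusted p = 4.2e-05) and STAT2 less (-0.46 ± 0.09), while OAS3 rose (0.56 ± 0.14). Without R1881 replicate 1, 4 of the 30 were lower, and with the replicate block 3 were higher and 9 lower.

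Of 27 genes of MYC and ribosome biogenesis 17 rose and 1 fell, with a median of 0.523. The nucleolar genes NOLC1 (343, 364 and 359.8 CPM with R1881, against 226, 235 and 259.7 CPM with vehicle; log2 fold change 0.57 ± 0.07 SE, adjusted p = 1.27e-05), NOP16 (0.81 ± 0.10) and LYAR (0.95 ± 0.13) had the smallest p. MYC itself had 241, 247 and 286 CPM with R1881, against 172, 168 and 272 CPM with vehicle. Its vehicle replicate 3 stood far above the other vehicle libraries and overlapped the R1881 range, and the gene was not called (log2 fold change 0.34 ± 0.19 SE, adjusted p = 0.223). It was called higher with the replicate block (0.37, adjusted p = 0.00333), with replicates 1 and 2 only (0.52, adjusted p = 6.89e-09) and without vehicle replicate 3 (0.59, adjusted p = 0.0162). Over all settings its value lay between 0.22 and 0.59. The fall was that of MXI1 (-0.34 ± 0.09), an antagonist of MYC, which lost its call without R1881 replicate 3 (adjusted p = 0.0545), and the block gave 2 lower.

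Of 9 genes of the IGF axis 4 rose and 2 fell. IGF1R, the type 1 receptor, had 226, 212 and 236 CPM with R1881, against 49.96, 47.7 and 53.5 CPM with vehicle, a 4.45-fold higher level (log2 fold change 2.15 ± 0.07 SE, adjusted p = 8.11e-12). Its ligand gene IGF1 (2.17 ± 0.40) and the adaptor gene IRS2 (1.44 ± 0.22) rose, and IGFBP3, which binds IGFs outside the cell, fell (15.4, 11.7 and 10.4 CPM with R1881, against 47.3, 46.6 and 59.8 CPM with vehicle; log2 fold change -2.03 ± 0.17 SE, adjusted p = 2.87e-07). Of 18 ligands and receptors of the ERBB, FGF, HGF and VEGF families 3 rose and 6 fell (13.8% and 13.2% of all genes), with EGFR higher (165, 149.5 and 176 CPM with R1881, against 82.0, 82.5 and 84.9 CPM with vehicle; log2 fold change 0.97 ± 0.08 SE, adjusted p = 2.14e-07), FGFR3 higher (1.37 ± 0.21), and ERBB2 (-1.01 ± 0.18), MET (-1.68 ± 0.49) and the EGFR ligand TGFA (-1.27 ± 0.13) lower. MET lost its call without R1881 replicate 2 or vehicle replicate 1 (adjusted p from 0.0594 to 0.0736). Without R1881 replicate 2, 3 of the 18 were lower, and without vehicle replicate 3, 5 were higher, against 6 with the replicate block. Among 13 feedback genes of ERK signalling 3 rose and 3 fell. DUSP4, a phosphatase of ERK, rose (1.62 ± 0.15), SPRY1 rose (0.65 ± 0.15) and SPRY4 fell (-2.44 ± 0.33), the last at a low level (1.14, 0.428 and 0.346 CPM with R1881, against 2.53, 3.25 and 5.00 CPM with vehicle; log2 fold change -3.18 without R1881 replicate 1). Without R1881 replicate 2 or vehicle replicate 3, 1 of the 13 was lower.

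Of 20 genes of TGF-beta and BMP signalling 4 rose and 7 fell. The inhibitors of differentiation ID1 (-1.44 ± 0.21), ID2 (-0.68 ± 0.15) and ID3 (log2 fold change -1.80 ± 0.26 SE, adjusted p = 7.66e-05), classic BMP targets, and the signal carrier SMAD3 (12.4, 13.4 and 14.8 CPM with R1881, against 26.8, 26.9 and 36.2 CPM with vehicle; log2 fold change -1.15 ± 0.13 SE, adjusted p = 9.49e-06) fell. Of 20 Wnt genes 3 rose and 8 fell, beside 13.8% and 13.2% of all genes. The receptors moved apart, FZD5 higher (94.6, 92.8 and 92.2 CPM with R1881, against 31.9, 33.3 and 27.8 CPM with vehicle; log2 fold change 1.59 ± 0.10 SE, adjusted p = 9.36e-09) and FZD7 lower (-1.55 ± 0.17), and LEF1, a nuclear factor of the pathway, fell (-1.24 ± 0.16). Without R1881 replicate 1, 5 of the 20 Wnt genes were lower. Of 26 ion channel genes 7 rose and 9 fell: among the rises were CHRNA2, TRPM8, CACNG4 (4.45 ± 0.41) and KCNMA1. KCNMA1 had 150.3, 154 and 161 CPM with R1881, against 22.1, 27.9 and 21.2 CPM with vehicle. Among falls were ITPR1 (-1.17 ± 0.07), the calcium release channel of the ER, and the plasma membrane calcium pump ATP2B1 (-1.01 ± 0.25). In the fit to the 6 libraries alone 1 of the 26 was lower.

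Of 26 adhesion and cytoskeleton genes 4 rose and 8 fell (13.8% and 13.2% of all genes), the share that rose being near that of all genes. MYLK, the myosin light chain kinase, had 7.75, 6.00 and 10.3 CPM with R1881, against 62.9, 58.9 and 77.4 CPM with vehicle (log2 fold change -3.06 ± 0.17 SE, adjusted p = 3.54e-09), and CDH26, a cadherin, had 7.95, 8.57 and 6.92 CPM with R1881, against 25.4, 26.8 and 24.6 CPM with vehicle (log2 fold change -1.71 ± 0.10 SE, adjusted p = 6.02e-09). CDH1, E-cadherin, changed little (-0.19 ± 0.07) and lost its call without R1881 replicate 1, R1881 replicate 2, R1881 replicate 3 or vehicle replicate 3 (adjusted p from 0.0526 to 0.149), while SNAI2, a repressor of cadherin genes also called SLUG, had 5.94, 5.43 and 7.18 CPM with R1881, against 0.230, 0.0692 and 0.267 CPM with vehicle (log2 fold change 4.96 ± 0.35 SE, adjusted p = 4.24e-08). VIM (-0.04 ± 0.17) and ACTA2 (0.01 ± 0.19) did not pass the test, and MYH11 and DES had no count. Of 9 tested transmembrane proteases and inhibitors, TMPRSS2 rose and TMPRSS6 fell (log2 fold change -2.21 ± 0.35 SE, adjusted p = 0.000192), with 2 higher and 4 lower under the replicate block. Of 17 clock genes 2 rose and 5 fell (13.8% and 13.2% of all genes), the share that rose being below that of all genes. BHLHE40 (1.34 ± 0.19) and PER1 (1.21 ± 0.19) rose and PER3 fell (-0.58 ± 0.08), and 2 or 3 of the 17 were lower when any single R1881 library or vehicle replicate 3 was left out. Summed neuroendocrine markers came to 29.1 to 41.4 CPM with R1881 and 48.0 to 72.3 CPM with vehicle, with 4 of the 12 at 0. ENO2 (log2 fold change -0.81 ± 0.16 SE, adjusted p = 0.00137) and SYT1 (log2 fold change -1.63 ± 0.55 SE, adjusted p = 0.0372) were lower, and SYT1 lost its call when any of 5 libraries was left out (all but vehicle replicate 1; adjusted p from 0.0554 to 0.124). Summed basal markers were 45.6 to 50.9 CPM with R1881 and 43.0 to 59.6 CPM with vehicle, and KRT14 was higher (1.54, 1.29 and 1.30 CPM with R1881, against 0.153, 0.0692 and 0.200 CPM with vehicle; log2 fold change 3.20 ± 0.49 SE, adjusted p = 0.000144).

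The genes that gained most of the library were mainly those already described (FASN, KLK3, TMPRSS2, FKBP5, SORD, LDHA), with ABHD2, a lipid hydrolase (2368, 2318 and 2338 CPM with R1881, against 799, 807 and 637 CPM with vehicle; log2 fold change 1.65 ± 0.09 SE, adjusted p = 3.62e-09), and ENDOD1 (log2 fold change 1.25 ± 0.11 SE, adjusted p = 5.3e-07). KLK3 held 0.170% ± 0.00382 with R1881 and 0.0113% ± 0.000662 with vehicle (SD, n = 3 each), and FASN 0.329% ± 0.0645 with R1881 and 0.163% ± 0.0568 with vehicle. Among those that lost most, SELENBP1, a selenium-binding protein, fell 4.53-fold (261, 231 and 260.2 CPM with R1881, against 1026, 981 and 1401 CPM with vehicle), MAP1B, a microtubule-associated protein, fell 2.09-fold (1139, 1060.0 and 1085 CPM with R1881, against 2311, 2371 and 2173 CPM with vehicle), and the translation factor EEF1A1 fell slightly (log2 fold change -0.30 ± 0.05 SE, adjusted p = 0.000669). MALAT1, a nuclear long non-coding RNA, had 17255, 18257 and 12619 CPM with R1881, against 30280.1, 32759.9 and 12162 CPM with vehicle. Vehicle replicate 3 was below every R1881 library, whereas the other vehicle libraries were above them all, and the gene was not called (log2 fold change -0.64 ± 0.32 SE, adjusted p = 0.153). It was called lower without that library (-0.98, adjusted p = 0.00742) and with the replicate block (-0.57, adjusted p = 0.0119). EEF2 had 3912, 3877 and 4644 CPM with R1881, against 4709, 4657 and 7416 CPM with vehicle, also uncalled (log2 fold change -0.43 ± 0.17 SE, adjusted p = 0.0679), and was called without vehicle replicate 1 (-0.54, adjusted p = 0.0376) or vehicle replicate 2 (-0.55, adjusted p = 0.0331) and with the block (-0.41, adjusted p = 0.000858). MT-CO3 (-0.12 ± 0.08) and the 7SL RNA copy RN7SL2 (-0.05 ± 0.17), which has near-identical copies, did not pass the test.

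The R1881 response with control siRNA was set beside that with the E2F pools. The pools had lowered their targets: E2F1 averaged 9.69 ± 0.876 CPM with E2F1 siRNA and 74.4 ± 6.32 CPM with control siRNA under R1881 (SD, n = 3 each). Under vehicle it averaged 6.83 ± 1.69 CPM with E2F1 siRNA and 37.3 ± 5.00 CPM with control siRNA. E2F2 averaged 0.195 ± 0.192 CPM with E2F2 siRNA and 3.43 ± 1.12 CPM with control siRNA under R1881. Of the 1245 genes called and at least 2-fold changed with control siRNA, 1224 had the same sign with E2F1 siRNA and 1217 with E2F2 siRNA. Their median log2 fold change among the risers was 1.53 with E2F1 siRNA, 1.44 with E2F2 siRNA and 1.56 with control siRNA. Among the fallers it was -1.25 with E2F1 siRNA, -1.09 with E2F2 siRNA and -1.47 with control siRNA. The genes were chosen by their values with control siRNA, so the other pools' values are not on an equal footing. The difference in response, tested gene by gene, was called for 104 genes (0.685%) with E2F1 siRNA, 57 positive and 47 negative, and for 135 genes (0.889%) with E2F2 siRNA, 85 positive and 50 negative. Both differences use the same control siRNA libraries.

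With E2F1 siRNA, the rise of the replication genes CDC6, TYMS, FEN1 and MCM4 was smaller than with control siRNA. They were named for a small p, and differences over the whole replication list were not counted. Of all genes 0.310% had a called negative difference. A difference in response does not tell whether the level with R1881 or that with vehicle moved. The log2 response of CDC6 was 0.36 ± 0.09 with E2F1 siRNA and 1.19 ± 0.09 with control siRNA (difference -0.84 ± 0.13, adjusted p = 0.00647). That of TYMS was 0.19 ± 0.08 with E2F1 siRNA and 0.99 ± 0.08 with control siRNA (difference -0.80 ± 0.12, adjusted p = 0.00469), that of FEN1 0.36 ± 0.08 with E2F1 siRNA and 1.08 ± 0.08 with control siRNA (difference -0.72 ± 0.11, adjusted p = 0.00647) and that of MCM4, a helicase subunit, -0.03 ± 0.08 with E2F1 siRNA and 0.82 ± 0.08 with control siRNA (difference -0.85 ± 0.11, adjusted p = 0.00218). NPC1, which exports cholesterol from lysosomes, differed likewise (-0.38 ± 0.06 with E2F1 siRNA and 0.40 ± 0.06 with control siRNA; difference -0.79 ± 0.09, adjusted p = 0.000845). In the other direction, IGF1R rose more with E2F1 siRNA, by 3.17 ± 0.07 with E2F1 siRNA and 2.15 ± 0.07 with control siRNA (difference 1.01 ± 0.10, adjusted p = 0.000248), and so did NCAPD3, a condensin subunit (3.33 ± 0.15 with E2F1 siRNA and 1.33 ± 0.14 with control siRNA; difference 2.00 ± 0.20, adjusted p = 0.000248). MYLK fell less (-1.04 ± 0.17 with E2F1 siRNA and -3.06 ± 0.17 with control siRNA; difference 2.01 ± 0.23, adjusted p = 0.000845), and ATXN1, a chromatin-binding factor, changed sign (0.39 ± 0.10 with E2F1 siRNA and -0.96 ± 0.10 with control siRNA). All of these 9 differences were called in each of the 12 fits that left out 1 library of the 4 groups, but that of FEN1 lost its call with no filter on low counts (adjusted p = 0.067) and with the 4 groups alone (adjusted p = 0.0653).

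With E2F2 siRNA the largest difference among the genes named was that of IGFBP3, whose log2 response was 1.08 ± 0.17 with E2F2 siRNA and -2.03 ± 0.17 with control siRNA (difference 3.11 ± 0.24, adjusted p = 8.6e-06). GRIN3A, a glutamate receptor subunit, rose more (2.80 ± 0.11 with E2F2 siRNA and 0.96 ± 0.10 with control siRNA), CAMK2N1 (-0.95 ± 0.09 with E2F2 siRNA and -1.95 ± 0.09 with control siRNA) and GRB10 (-1.62 ± 0.07 with E2F2 siRNA and -2.34 ± 0.07 with control siRNA) fell less, and NIPAL3, a magnesium transporter, changed sign (0.30 ± 0.07 with E2F2 siRNA and -0.58 ± 0.07 with control siRNA). NUP93, a nuclear pore protein, fell further (-1.75 ± 0.09 with E2F2 siRNA and -0.31 ± 0.09 with control siRNA; difference -1.44 ± 0.12, adjusted p = 1.83e-05). TMTC2 (-0.51 ± 0.10 with E2F2 siRNA and 0.93 ± 0.10 with control siRNA) and AEN (-0.30 ± 0.09 with E2F2 siRNA and 0.54 ± 0.09 with control siRNA) had a response below 0 with E2F2 siRNA and above 0 with control siRNA. These 8 differences too were called in each of the 12 fits that left out 1 library. The number of called differences moved more. Without control siRNA vehicle replicate 3 it was 250 with E2F1 siRNA and 208 with E2F2 siRNA. With E2F1 siRNA, in place of 104, it was 29 to 63 without control siRNA vehicle replicate 1, control siRNA R1881 replicate 1 or 2, E2F1 siRNA vehicle replicate 1, or any of the 3 E2F1 siRNA R1881 libraries. With E2F2 siRNA, in place of 135, it was 53 to 80 without control siRNA vehicle replicate 1, control siRNA R1881 replicate 1 or 2, any of the 3 E2F2 siRNA vehicle libraries, or E2F2 siRNA R1881 replicate 1 or 2. With the replicate block the counts were 696 and 658.

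**Figure D4:**
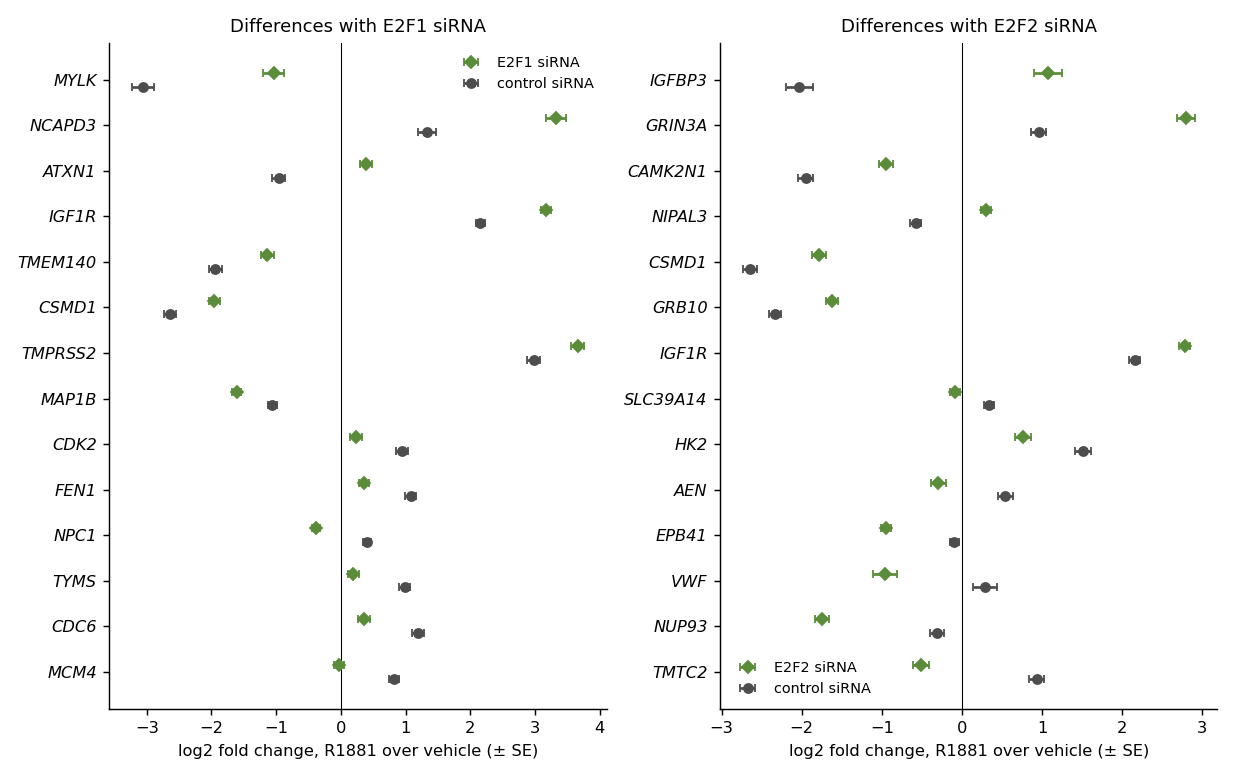
Log2 fold change of R1881 over vehicle (± SE) for the genes named by rule for a difference in response, with E2F1 siRNA (left panel, green) or E2F2 siRNA (right panel, green) above control siRNA (grey) in each row. The widest gap is that of IGFBP3, at 1.08 with E2F2 siRNA and -2.03 with control siRNA, and CDC6, TYMS, FEN1, CDK2 and MCM4 lie nearer to 0 with E2F1 siRNA.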

How the data were processed

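RNA of LNCaP cells was sequenced after capture of exonic sequence, per the labels' protocols. The authors deposited raw whole-number counts per gene. The submitters' processing notes name CASAVA 1.8.2, TopHat2 2.0.13, Picard 1.97, Subread 1.6.4 and GRCh38. Whether counting used strand, and how it treated reads with several matches, is not given in the sources used here.

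Gene symbols came with the deposited counts, and gene positions came from GENCODE 29 (57433 of 58037 genes matched). Genes with counts too low for a test were dropped (minimum count 10, minimum total 15), which left 15185. One edgeR 4.0.16 model (R 4.3.3, limma 3.58.1) with 6 group means was fitted to all 18 libraries, so that the spread is shared, and R1881 was tested against vehicle by the quasi-likelihood F test with Benjamini-Hochberg adjustment over all tested genes. Every adjusted p is from edgeR unless another tool is named, and a gene is called at an adjusted p under 0.05. Differences between responses are interaction contrasts of the same fit. SEs are the size of the log2 fold change over the square root of F. CPM use TMM-scaled library sizes. Counting intervals (exact binomial, 95%) and the floor of 3 counts per group cover counting error only, and fragments were not counted by molecular identifiers. The design text calls the replicates biological without saying what separates them, so p-values set a change against the spread between these samples only. That spread was estimated without a replicate term, so the shift of replicate 3 is counted in it.

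Replicate numbers are shared between groups. Deviations of same-numbered R1881 and vehicle libraries from their group means correlated at r = 0.584, 0.732 and 0.840 across 11523 genes, all over 0.1. This comes from the data, as the labels name no shared batch. Replicates 1 and 2 correlated across numbers too (r = 0.545 and 0.714), and replicate 3 was opposed to both (r from -0.805 to -0.592). The deviations within a group sum to 0, so with replicate 3 apart in both groups those of 1 and 2 both oppose it. The values therefore set replicate 3 apart in both groups and do not show that the numbers pair replicates 1 or 2. The fit was tested on simulated data that held no shift of replicate 3. It recovered 14 of 70 genes given a log2 change of 0.5. At a change of 1 it recovered 47 of 74, and at 2 it recovered 53 of 56, with 8 false calls. A gene that did not pass the test is therefore not shown to be unchanged.

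Genes are named by rule: the 12 largest rises and falls without overlap at an average log2 CPM of at least 1, the 12 smallest p in each direction, the 3 called members with the smallest p in each list role, the 10 genes that gained and the 10 that lost most of the counts, and 7 genes of prior interest. Differences named are, per E2F pool, the 5 positive and 5 negative with the smallest p among those genes and the 3 and 3 over all genes. Some genes that the rule takes are not reported here. Members outside the rule were chosen after their values were seen. The gene lists were chosen with earlier results of these data known. RefSeq promoter windows (GRCh38.p14) were matched by symbol for 135 of the 184 named genes and searched for 7 motifs. Alternatives were other scaling, filters, DESeq2 1.42.0, limma-voom, the compared groups alone, the replicate block, replicates 1 and 2, GC offsets and each library left out.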

Additional observations from a re-analysis of the deposited data

Results flagged for a closer look

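Genes are listed here because their R1881 response differed between an E2F siRNA pool and control siRNA in a direct test of the difference (the interaction contrast of edgeR's quasi-likelihood fit). With E2F1 siRNA, the response minus that with control siRNA was positive on the log2 scale for MYLK (2.01 ± 0.23), NCAPD3 (2.00 ± 0.20), ATXN1 (1.35 ± 0.14), IGF1R (1.01 ± 0.10), TMEM140 (0.801 ± 0.14), CSMD1 (0.691 ± 0.12) and TMPRSS2 (0.680 ± 0.13). It was negative for MAP1B (-0.551 ± 0.10), CDK2 (-0.712 ± 0.13), FEN1 (-0.721 ± 0.11), NPC1 (-0.786 ± 0.09), TYMS (-0.798 ± 0.12), CDC6 (-0.838 ± 0.13) and MCM4 (-0.852 ± 0.11). The adjusted p of these lay between 0.000248 and 0.0209. When each of the 12 libraries behind them was left out in turn, 9 of the 14 were called every time, and TMEM140 in 9 of 12, CSMD1 in 8 of 12, TMPRSS2 in 5 of 12, MAP1B in 8 of 12 and CDK2 in 5 of 12. With no filter on low counts, and with the 4 groups alone, CSMD1, TMEM140, TMPRSS2, FEN1, MAP1B and CDK2 lost their calls (adjusted p from 0.0511 to 0.147). With E2F2 siRNA, the response minus that with control siRNA was positive on the log2 scale for IGFBP3 (3.11 ± 0.24), GRIN3A (1.84 ± 0.14), CAMK2N1 (1.00 ± 0.13), NIPAL3 (0.878 ± 0.09), CSMD1 (0.856 ± 0.12), GRB10 (0.718 ± 0.10) and IGF1R (0.624 ± 0.10). It was negative for SLC39A14 (-0.420 ± 0.09), HK2 (-0.751 ± 0.14), AEN (-0.835 ± 0.13), EPB41 (-0.850 ± 0.08), VWF (-1.24 ± 0.21), NUP93 (-1.44 ± 0.12) and TMTC2 (-1.44 ± 0.14). The adjusted p of these lay between 8.6e-06 and 0.0349. When each of the 12 libraries behind them was left out in turn, 12 of the 14 were called every time, and SLC39A14 in 2 of 12 and HK2 in 7 of 12. With no filter on low counts, and with the 4 groups alone, IGF1R, HK2 and SLC39A14 lost their calls (adjusted p from 0.0721 to 0.477). EPB41 lost its call with GC content offsets (adjusted p = 0.0891). Both sets share the control siRNA libraries. No cause was tested.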

How the results depend on the processing

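The count of genes changed by R1881 with control siRNA (4105) was 4095 with RLE scaling, 4091 with another expression filter, 3530 with no filter, 4340 with DESeq2, 4191 with limma-voom and 4042 with the replicate block on the compared groups alone. It was 1842 with the compared groups alone, 6392 with the replicate block, 7205 with replicate 3 left out of every group, 6787 with GC offsets, 7897 with GC offsets and the replicate block, 2666 at an adjusted p under 0.01 and 1245 with a 2-fold minimum. Leaving out 1 library gave 3180 (without R1881 replicate 2) to 4711 (without vehicle replicate 3). For the difference with E2F1 siRNA (104) the counts were 22 with no filter, 350 with DESeq2, 21 with the compared groups alone, 696 with the replicate block, 433 with both, 1844 with replicate 3 left out, 1216 with GC offsets, 2154 with GC offsets and block, 25 at 0.01, 25 with a 2-fold minimum, and 29 to 250 with 1 library left out. For the difference with E2F2 siRNA (135) they were 60, 317, 40, 658, 216, 1767, 1009, 1865, 37 and 53 under those settings in the same order, and 53 to 208 with 1 library left out. Of the 184 named genes, all 184 kept their call and direction under RLE scaling, DESeq2 and the CPM filter, 179 under the replicate block (the other 5 gained a call) and 165 with the compared groups alone, where 17 lost their call. RN7SL2, uncalled, changed sign: 0.0591 with replicates 1 and 2 only, 0.0287 with GC offsets, 0.0292 with GC offsets and block, and -0.17 to 0.19 with 1 library left out. The replicate block changed no other call of the 184 genes than those given beside the results and MT-CO3 (adjusted p = 0.0466). Of 106 counts of list members, 25 moved by over 1.5 times under the replicate block and 37 with the compared groups alone. No scaling moved the median of all genes by 0.1 or more on the log2 scale. At this depth genes silent with vehicle have wide counting intervals, and the causes of these shifts were not tested.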
